A study of Caenorhabditis elegans with 2 samples.

Results

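The cytosolic ribosomal protein genes of Caenorhabditis elegans were taken as all protein-coding genes whose symbol starts with rpl- or rps- in the Ensembl annotation of the WBcel235 genome. They numbered 78 of 19985 protein-coding genes, 47 with an rpl- name (large subunit) and 31 with an rps- name (small subunit). The members were picked out by symbol and not by a measured value, although the gene family was chosen with earlier results of these data known. The measurement was chromatin immunoprecipitation followed by sequencing (ChIP-seq), in which sonicated chromatin bound by a tagged protein is recovered with an antibody and its DNA is sequenced. Here the antibody recognised GFP, and the chromatin came from whole hermaphrodite young adults of strain OP478. These animals carry unc-119(tm4063) III and the integrated array wgIs478, from which T07F8.4 is expressed with a C-terminal GFP-FLAG tag, and were collected 64 h after starved L1 larvae were synchronised. There was a single group of 2 biological replicates, and untagged animals and input DNA were not analysed here. The labels do not name the promoter that drives the tagged protein, both replicates share 1 transgenic line, and whole animals do not show in which cells a region was bound.

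A ribosome is assembled from ribosomal RNA and a fixed set of proteins, divided between a small subunit that decodes the mRNA and a large subunit that joins amino acids. Genes for these proteins are short and strongly expressed, and their products are needed in about equal amounts. Many worm mRNAs receive a spliced leader by trans-splicing, so an annotated transcript start can mark a splice acceptor rather than the place where transcription begins. Some ribosomal protein genes carry small nucleolar RNA (snoRNA) genes in their introns, which guide chemical modification of ribosomal RNA.

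The sequences of the 4 highest-ranked summits at ribosomal protein genes are shown, because their windows shared short words of DNA. A summit is the position that the authors' peak caller put at the top of a region. Each window runs 50 bp either side of the summit on ce11 (WBcel235) and is written 5′ to 3′ on the strand of the gene, so that the gene lies to the right. Capitals mark a match on either strand to any of 5 words, namely CACTCG, the word GGCGCA, the word TACGGT, then AGTGTA and finally GCGTGT.
rpl-3 (chrIII:3867531-3867631, forward strand): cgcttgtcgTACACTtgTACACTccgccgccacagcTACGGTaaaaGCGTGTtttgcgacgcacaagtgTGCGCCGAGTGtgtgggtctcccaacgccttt
rpl-15 (chrIV:654889-654989, reverse strand): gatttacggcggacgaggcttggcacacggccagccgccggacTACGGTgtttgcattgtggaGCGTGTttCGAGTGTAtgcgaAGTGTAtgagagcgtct
rpl-20 (chrIV:4750018-4750118, reverse strand): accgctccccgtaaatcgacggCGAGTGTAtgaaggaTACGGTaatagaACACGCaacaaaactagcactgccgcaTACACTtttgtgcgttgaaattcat
rpl-35 (chrIII:7854626-7854726, forward strand): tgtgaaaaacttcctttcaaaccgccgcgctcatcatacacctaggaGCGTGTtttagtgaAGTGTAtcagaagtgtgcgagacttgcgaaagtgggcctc
All 4 windows held GCGTGT as well as AGTGTA. The word TACGGT, and also CACTCG, was in those of rpl-3, rpl-15 and rpl-20. GCGTGT began within 4 bases of the summit in rpl-3, rpl-20 and rpl-35, and 13 bases after it in rpl-15. TACGGT lay before the summit in each of its 3 windows, starting 14 bases before it in rpl-3, 13 in rpl-20 and 7 in rpl-15. CACTCG shares bases with AGTGTA in rpl-15 and rpl-20, where together they spell the run CGAGTGTA, and GGCGCA shares a base with CACTCG in rpl-3. The words TACGGT, also AGTGTA, and likewise GCGTGT were picked by reading these windows, and the others were known from earlier results on the same peaks, so their presence here is a description.

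The files held lists of regions with a signal value and a summit for each region, and the signal values are the authors' own. The list called on both replicates pooled held 16958 regions, the replicate lists held 19514 and 17499, and the reproducible list, selected by the authors by the irreproducible discovery rate, held 621. By its label, the pooled list holds peaks and background, as input for that selection. A pooled summit alone is therefore not a called peak. The reproducible regions were exactly the 621 pooled regions with the highest signal, so a reproducible summit is here a pooled rank of 621 or better. Signal ran from 17.0 to 364.2 over nuclear pooled regions, with a median of 23.0 over the whole list. Values were compared within a list and not between lists, since no source states the scale. The files list no read counts, so read depth is unknown. A gene was given the highest reproducible summit within 1000 bp of one of its transcript starts, or else the highest pooled summit in that reach, and 1 summit could serve several genes.

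Nearly every ribosomal protein gene had a region within 1000 bp of a transcript start, and about 1 in 5 had a reproducible one. A pooled summit was found for 76 of 78 members (97.4%, 95% Wilson interval 91.12% to 99.29%), against 36.9% of all protein-coding genes, members included. The authors' −log10 q-value at these summits was 2.925 at rpl-3 but 0.073 at rps-3, so some may be background. A reproducible summit was found for 15 of 78 (19.2%, interval 12.02% to 29.33%), against 2.07% of protein-coding genes, which is 413 of 19985. Both counts depend on the reach: within 250 bp of a start, 29 of 78 members had a pooled summit, against 16.8% of protein-coding genes. Within that distance 1 member, rpl-12, had a reproducible one, and this 1.28% is near the 0.711% of protein-coding genes. When a summit served only the nearest start of any gene class, 7 members kept a reproducible one. The intervals above cover counting error over genes only, and neighbouring genes are not independent. The members are short, with a median length of 753.5 bp against 2026 bp for protein-coding genes. Among the 8394 protein-coding genes no longer than the longest member (rpl-3, 1734 bp), 33.1% had a pooled and 2.01% a reproducible summit. The median ribosomal protein gene had 2 pooled summits in reach and the median protein-coding gene had 0.

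Genes of both subunits were among them. Of the large subunit genes, 9 of 47 had a reproducible summit (19.1%, interval 10.42% to 32.54%), and of the small subunit genes 6 of 31 (19.4%, interval 9.187% to 36.28%). A pooled summit was present at all 31 small subunit genes and at 45 of 47 large subunit genes. The exceptions were rpl-37 and rpl-42, 2 large subunit genes with no pooled summit within 1000 bp. Median signal was 43.3 for the large and 44.8 for the small subunit genes with a summit. By chromosome, reproducible summits were found at 6 of 17 members on chromosome IV, 4 of 18 on III and 5 of 23 on I, and at 0 of 10 on II, 0 of 8 on V and 0 of 2 on X. For so few genes, 0 allows a share of up to 27.75% on II and 32.44% on V (Wilson), which holds the 19.2% of all members. The matching shares by chromosome over all protein-coding genes were not counted, so this split does not show a trait of the members.

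Over the whole range of ranks, the members stood above other protein-coding genes. Their median pooled signal was 44.1 (n = 76) and the median rank 1606, against 25.9 and 6290 for the 7289 non-member coding genes that had one. Of 29 protein-coding genes assigned a summit among the first 50 pooled regions, 3 were members (3.85% of members, 0.145% of protein-coding genes). Within rank 1000 were 27 members (34.6%) against 3.57% of protein-coding genes, and within rank 2000 were 47 (60.3%) against 7.3%. Within rank 5000 were 72 (92.3%) against 15.6%. The signal of the last reproducible region was 68.2 and that of the next region down 68.19. Of the members, rpl-41.2 at 69.8 lay just inside this limit and rpl-43 at 67.1 just outside, so the limit passed through a continuous run of values.

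**Figure D1:**
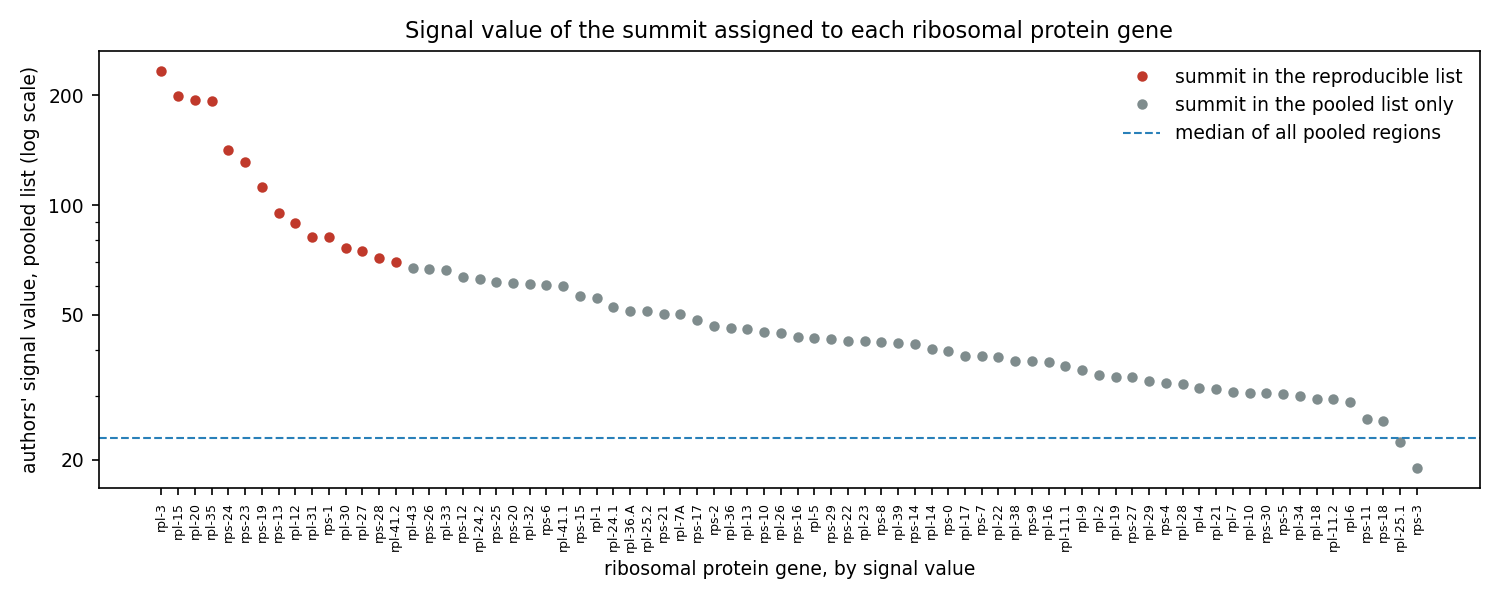
The authors' signal value in the pooled list (log scale) for each of the 76 ribosomal protein genes with a summit, ordered by signal. Red points are reproducible summits, grey points are summits of the pooled list only, and the dashed line is the median of all pooled regions, 23.0. Values run from 233.9 at rpl-3 to 19.0 at rps-3, with rpl-25.1 and rps-3 under the line.

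The 4 highest members were large subunit genes, all with the summit upstream. The highest was rpl-3, whose product lies close to the catalytic centre of the large subunit. Its summit at chrIII:3867581 had a pooled signal of 233.9 (rank 27, or 8 among nuclear regions), with 116.0 in replicate 1 and 117.7 in replicate 2, and lay 273 bp upstream of a transcript start. At rpl-15 the signal was 199.6 (rank 46), with 96.9 and 100.6 in the replicates, 363 bp upstream of the start. This gene hosts the snoRNA genes K11H12.12 and K11H12.13, but the summit had no small RNA gene within 300 bp. At rpl-20 the signal was 194.7 (rank 49), 290 bp upstream, with 119.0 in replicate 1 and 73.0 in replicate 2. That summit was nearer to the start of Y17G9B.5, at 172 bp, than to that of rpl-20. At rpl-35, whose product sits near the exit of the peptide tunnel, the signal was 192.9 (rank 51), with 109.3 and 87.3, and the summit was 458 bp upstream. In both replicate lists these 4 summits ranked within the first 90.

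Further large subunit genes had reproducible summits of lower rank and more varied position. At rpl-12, which encodes a protein at the base of the stalk that engages translation factors, the summit lay 12 bp upstream of the start, with a signal of 89.2 (rank 339). It ranked 173 in replicate 1 (62.6) and 1097 in replicate 2 (27.9), one of the widest gaps between the replicate ranks among the reproducible members. The summit at rpl-30 (76.4, rank 477, replicates 43.1 and 32.5) was 908 bp upstream and lay inside pab-1, 108 bp from a start of that gene, which encodes a poly(A)-binding protein. For rpl-31 (81.9, rank 416, replicates 33.0 and 49.7), rpl-27 (75.04, rank 498, replicates 36.8 and 41.4) and rpl-41.2 (69.8, rank 592, replicates 29.3 and 39.3) the summit lay past the end of the gene, by 159, 118 and 106 bp. The rpl-27 summit was 105 bp upstream of egl-30, a G protein alpha subunit gene, and that of rpl-41.2 lay inside zig-7. So 5 of the 9 reproducible large subunit summits were upstream of their gene by under 500 bp, 1 farther upstream and 3 past the end.

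Among small subunit genes the highest were rps-24 and rps-23. The rps-24 summit had a signal of 141.4 (rank 96), with 64.7 and 72.3 in the replicates, 348 bp upstream. Of the 30-base words in its window, 45.8% occur more than once in the genome, and the part of repeated sequence in its signal was not tested. At rps-23, whose product sits in the decoding centre, the signal was 131.0 (rank 120), with 77.6 and 53.4, at 285 bp upstream. Its summit was nearer to dpm-3, at 249 bp. At rps-19 it was 112.0 (rank 190), with 57.95 and 56.48, at 305 bp upstream and 140 bp from hsr-9. At rps-28 it was 71.5 (rank 554), with 24.8 and 32.7, at 416 bp upstream. In the replicate lists rps-28 ranked 1705 and 744, below the reach of a 621-region list in each.

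The other small subunit summits, at rps-13 and rps-1, were the reproducible ones with a small RNA gene within 300 bp. The rps-13 summit (95.3, rank 294, replicates 42.5 and 54.6) lay in a coding exon 696 bp downstream of the start, 114 bp from the snoRNA gene C16A3.11, and 2.78% of its 30-base words are repeated. The rps-1 summit (81.6, rank 418, replicates 44.2 and 39.1) lay 297 bp upstream, inside the genes F56F3.10 and F56F3.11, which are annotated as non-coding RNA. The remaining 13 reproducible members (16.7% of 78) had no small RNA gene within 300 bp, against 1.06% of protein-coding genes with such a summit. Leaving out those near small RNA genes thus left 13 of 15 members and 211 of 413 protein-coding genes. No tRNA gene was found within 300 bp of any member's summit. Nearness to tRNA genes was not counted for non-member genes, so this absence does not show a trait of the members.

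Among the 61 members with a pooled summit only, signal ran from 19.0 to 67.1. The highest was rpl-43 (67.1, rank 647, replicates 20.7 and 42.7), whose summit lay 155 bp past the gene end and 44 bp upstream of xrn-2, an exoribonuclease gene. It was followed by rps-26 (66.9, rank 650, replicates 40.6 and 26.7) at 104 bp past the end, within gpr-158, and rpl-33 (66.3, rank 661, replicates 24.7 and 41.3) inside the gene. Then came rps-12 (63.7, rank 721, replicates 43.8 and 17.2) at 176 bp upstream and rpl-24.2 (62.8, rank 738, replicates 28.6 and 23.5) at 41 bp inside. The rps-12 summit was nearer to the start of ska-3, at 117 bp, and that of rpl-24.2 lay inside C03D6.1 as well. The best replicate rank of these 5 was 379, that of rpl-43 in replicate 2. The lowest was rps-3 (19.0, rank 13370), which encodes a protein at the mRNA entry channel and had no summit within 100 bp in either replicate list. Members whose names differ only in the last number were close in some pairs and apart in others. The names alone do not show that such genes are paralogs. The rank was 1143 at rpl-25.2 (signal 51.1) and 9163 at rpl-25.1 (22.3), whereas rpl-24.2 (62.8) and rpl-24.1 (52.5) ranked 738 and 1076. For rpl-11.1 (36.3) and rpl-11.2 (29.4) the ranks were 2613 and 4496. The summit given to rpl-41.1 (59.8, rank 826) lay 413 bp past its end and 287 bp upstream of rpl-41.2, its nearest protein-coding start, so it is not particular to rpl-41.1.

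A small RNA gene lay within 300 bp of 13 of these 61 summits as well. Those of rpl-1, rpl-9, rpl-5, rpl-7 and rpl-6 lay inside a gene annotated as non-coding or snoRNA (distance 0), with signals of 55.5, 35.4, 43.3, 30.6 and 28.8. The others were rpl-2 at 62 bp (34.1), rpl-4 at 65 bp (31.5), rpl-11.2 at 76 bp (29.4), rps-29 at 149 bp (42.9), rps-0 at 168 bp (39.7), rpl-24.1 at 192 bp (52.5), rps-30 at 236 bp (30.4), with rps-12 farthest away. In all, 15 of 76 members had such a neighbour, a snoRNA gene in 6 and only genes of the class annotated as non-coding RNA in the other 9. The matching share over all protein-coding genes with a pooled summit was not counted, so these counts do not show whether members differ. A reproducible summit was present at 3 of the 13 members that host a snoRNA gene (23.1%) and at 12 of the 65 that host none (18.5%).

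The replicate lists were compared around each pooled summit. A summit within 100 bp was present in both replicate lists for 51 of 76 members (67.1%), against 34.9% of all protein-coding genes with a pooled summit. Within 50 bp it was present in both for 32 of 76, against 22.3%. It was in the replicate 1 list alone for 10, in the replicate 2 list alone for 14 and in neither for rps-3. All 15 reproducible members had one in both lists, and 6 of them ranked higher in replicate 1. Among non-member coding genes that had a reproducible summit, 374 of 398 were in both lists too. Presence in both lists was therefore not particular to the reproducible members. The members also had higher pooled signal (median 44.1 against 25.9 for other protein-coding genes). The shares present in both lists were not matched for signal. Over the 51 members in both lists the rank correlation of the replicate signals was 0.50 (Spearman), and over 2522 other protein-coding genes it was 0.59. It is across genes, which share the libraries and are not replicates, and is a description only.

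**Figure D2:**
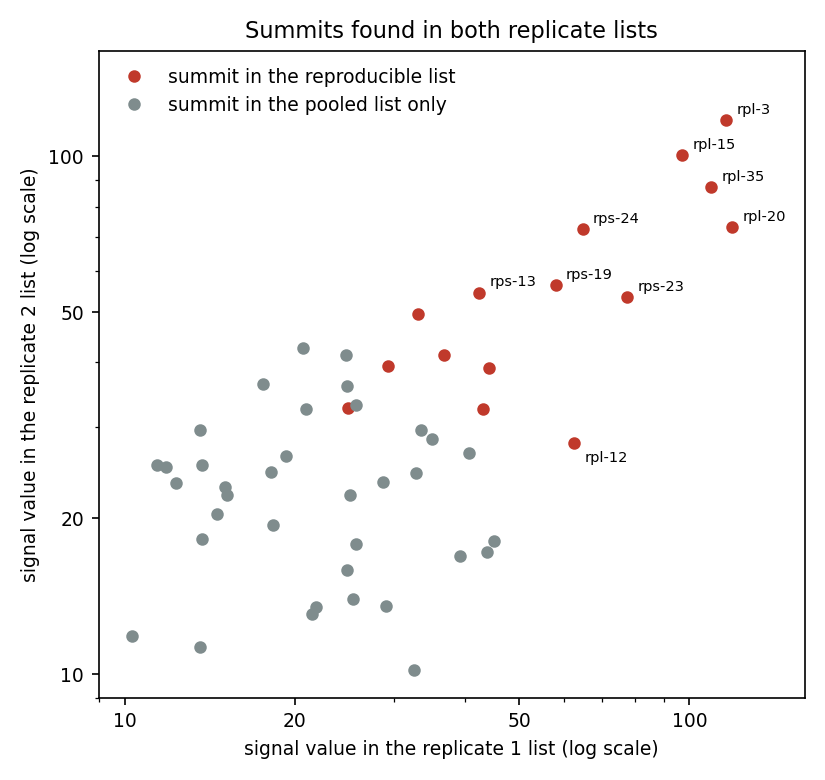
Signal value in the replicate 1 list against that in the replicate 2 list (log scales) for the 51 ribosomal protein genes with a summit in both. Red points are the 15 reproducible members and grey points the rest, and each list has its own scale. The 4 highest genes stand together at the top right, and rpl-12 is high in replicate 1 (62.6) and lower in replicate 2 (27.9).

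Summits fell into 3 places: 29 of 76 were upstream of the gene (38.2%), 22 inside it (28.9%) and 25 past its end (32.9%). Of the reproducible summits 11 of 15 were upstream (73.3%), near the 70.2% among all protein-coding genes with a reproducible summit, with 1 inside and 3 past the end. Upstream summits had a median distance of 305 bp from the start, with quartiles of 223 and 416 bp, and only rpl-12, rpl-38, rps-5, rps-22 and rpl-7A had one within 100 bp. The signal had a median of 55.5 upstream, 35.6 inside and 46.0 past the end. The 22 inside summits lay in coding exons for 15, introns for 5 and 3′ UTRs for 2. For 20 of the 29 upstream summits, a start of another protein-coding gene on the opposite strand lay within 1000 bp, and 11 were nearer to another protein-coding start than to their own. The nearest protein-coding start was the member's own for 49 of 76 summits, and for 10 of the 15 reproducible ones. Neighbouring starts were not counted over all protein-coding genes, so these counts do not show a trait of the members.

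Summits near the gene end were frequent at these short genes. Of the 25 summits past the end, the median distance beyond it was 106 bp, with quartiles of 64 and 165 bp, and 20 of all 76 summits lay within 150 bp of the gene end (26.3%). Among protein-coding genes up to 1734 bp with a pooled summit, 49.2% had it upstream, 11.5% past the end and 10.2% within 150 bp of the end. These genes are longer than most members, and a short gene has its end within reach more often. Restricted to genes of at most 1000 bp, 19 of 61 members (31.1%, interval 20.94% to 43.59%) and 19.5% of protein-coding genes had the summit within 150 bp of the end. The nearest protein-coding start was another gene's for 13 of the 25, and 10 had another gene's start on the same strand within 1000 bp. The matching shares over other short genes were not counted. Examples are rpl-43 before xrn-2, rpl-27 before egl-30 and rpl-26 (44.7) 60 bp before suf-1.

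**Figure D3:**
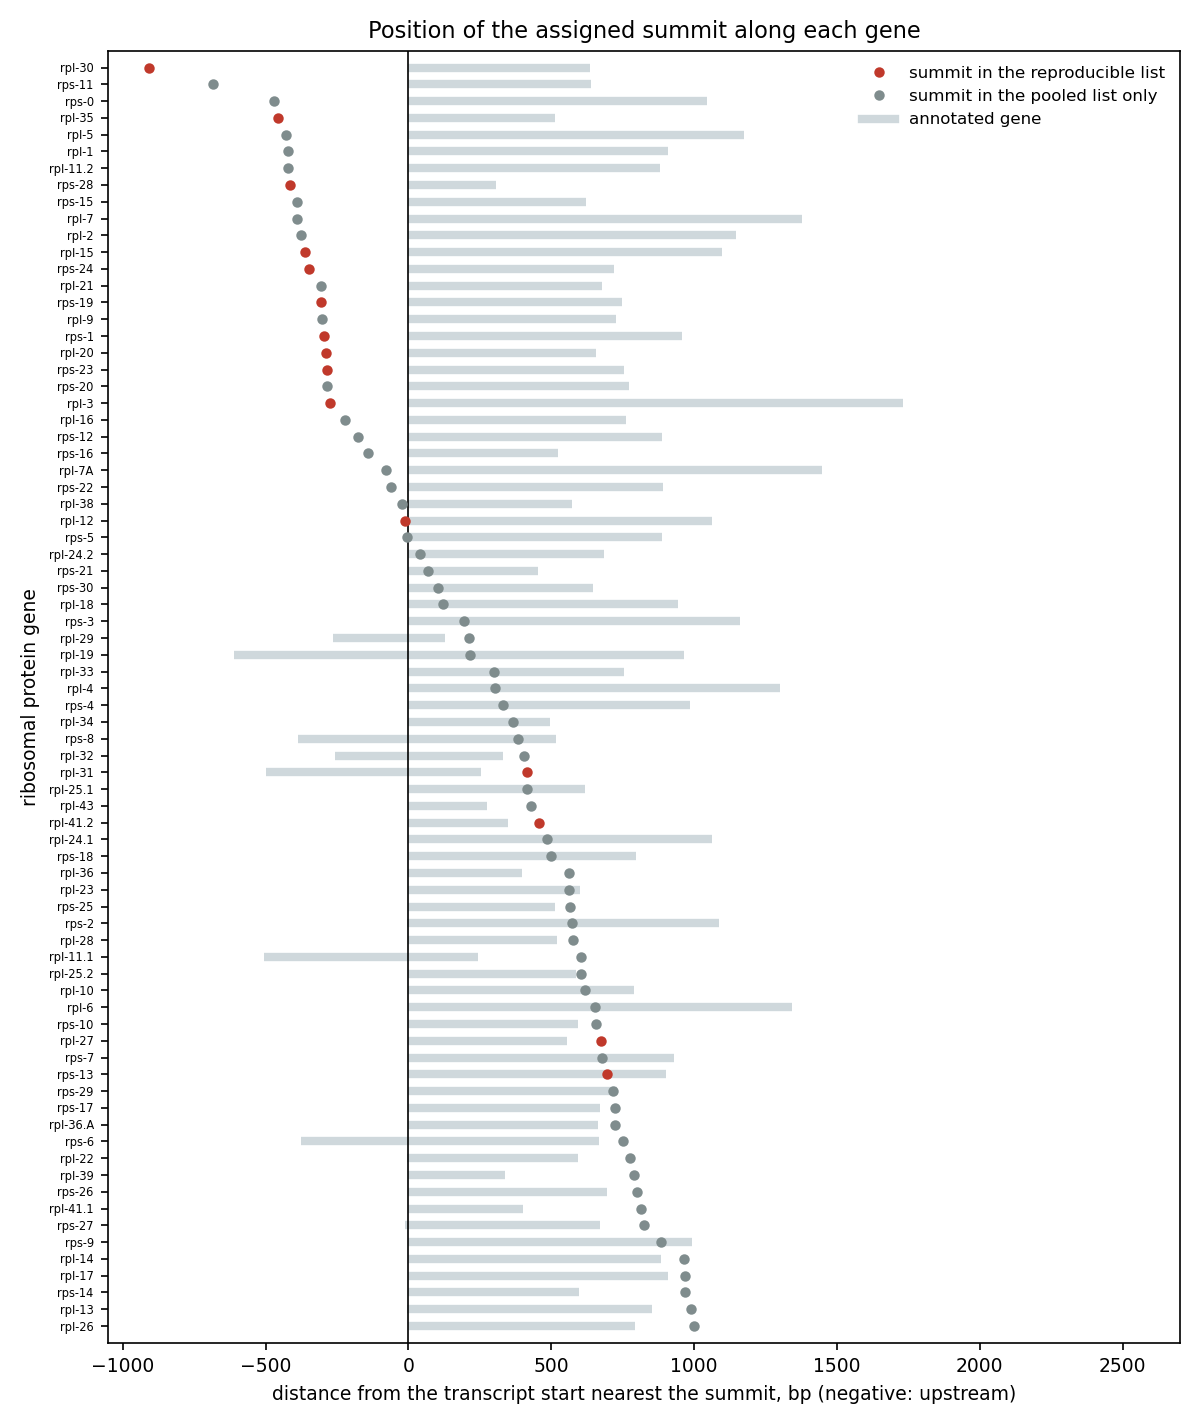
Distance in bp of the assigned summit from the nearest transcript start of each of 76 ribosomal protein genes, with upstream to the left. Pale bars are the annotated genes, which reach left of 0 where a gene has a farther start. Red points, the reproducible summits, stand mostly between 273 and 458 bp upstream, and 25 points lie to the right of their bar.

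The place of the summit also went with base composition. The GC content within 50 bp had a median of 49.5% upstream, 43.6% inside and 38.6% past the end. Over all nuclear regions it was 50.5% at reproducible and 40.6% at other pooled summits. The 15 reproducible members had a median of 50.5% and the other 61 of 41.6%, and the highest value was 63.4% at rpl-27, past the gene end. The part of GC content in these signal values was not tested. Region width differed as well: 7 of the 15 reproducible members, but 0 of the other 61, had a region narrower than the 436 bp of most regions, against 88 of 621 in the reproducible list. All 30-base words of the window were unique in the genome for 73 of 76 members, the others being rps-24, rps-13 and rpl-7A (20.8% repeated). Repeated words were not counted for the windows of other genes, so this count does not show a trait of the members.

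**Figure D4:**
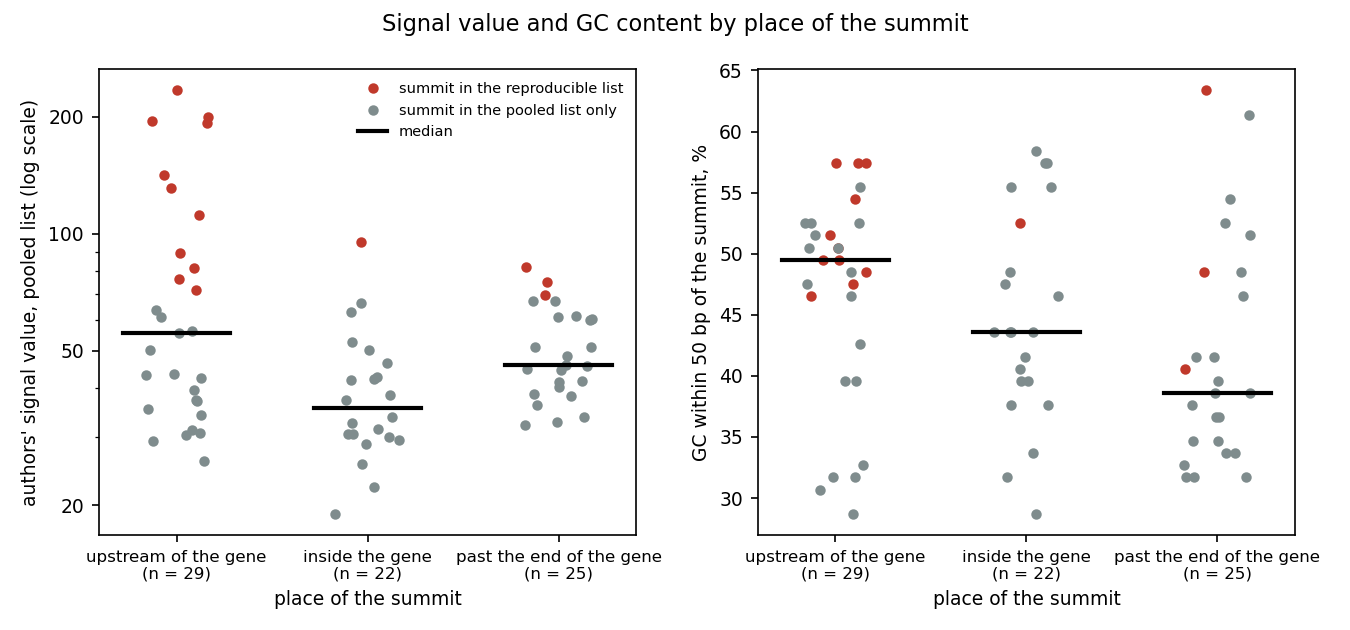
The authors' signal value (left, log scale) and GC content within 50 bp of the summit in percent (right) for summits upstream of, inside and past the end of 76 ribosomal protein genes. Points are genes, red for reproducible summits, and bars are medians (signal 55.5, 35.6 and 46.0, GC 49.5%, 43.6% and 38.6%).

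The words in the 4 sequences above were searched on both strands in every window. CACTCG was in 5 members' windows, rpl-3, rpl-15, rpl-20, rps-23 and rpl-21, all upstream. It occurred in 12% of the 600 nuclear reproducible windows and 2.9% of 16335 other pooled ones. TACGGT was in 7 of the 29 upstream windows of members, rpl-3, rpl-15, rpl-20, rps-23, rps-1, rpl-5 and rpl-21, and in 0 of the other 47. That count includes rpl-3, rpl-15 and rpl-20, from whose windows the word was read. It was in 4.77% of the 3815 upstream windows of other protein-coding genes, and in 2.83% of reproducible and 3.12% of other pooled windows. AGTGTA was in 4 windows of members (4.5% of reproducible and 3.39% of other pooled windows) and GCGTGT in 5, the 4 shown and rpl-7 (6.67% and 2.75%). GGCGCA was in 7 members' windows (10.7% and 3.5%) and ACGCGC in 3 (10.8% and 3.15%). Of the 29 upstream windows of members, CACTCG was in 5, AGTGTA in 4, GCGTGT in 5, GGCGCA in 6 and ACGCGC in 2. Over the 3815 upstream windows of other protein-coding genes the shares were 3.8%, 3.77%, 3.96%, 5.53% and 7.52%. The counts for AGTGTA and GCGTGT again include the 4 windows from which these words were read. GTTCGA, which belongs to the internal B box promoter of tRNA genes, was in 2 windows of members and 0 of the reproducible 15, against 21.5% of reproducible and 4.4% of other pooled windows. TATAAA was in 1 and the splice acceptor word TTTCAG in 8 (6.5% and 11.1%, then 4.33% and 15.5%).

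In the 500 bp before the gene, searched whatever the summit, TACGGT was found at 36 of 78 members (46.2%) and at 13.9% of protein-coding genes, and the 36 again include genes from which it was read. CACTCG was at 28.2% against 8.87%, GGCGCA at 25.6% against 9.41%, and GCGTGT at 23.1% against 9.55%. AGTGTA was at 11.5% against 17.7%. TATAAA was at 53.8% against 54.1%, TTTCAG at 85.9% against 65.4%, GTTCGA at 17.9% against 15.4% and ACGCGC at 11.5% against 9.27%. Members with and without TACGGT in this stretch did not separate by signal. A reproducible summit was present at 7 of the 36 with it (19.4%) and at 8 of the 42 without it (19.0%), and the median signals were 44.0 and 44.6. With CACTCG, 6 of 22 had one and without it 9 of 56, with median signals of 44.05 and 44.08. With GGCGCA, 3 of 20 had one (15.0%) and without it 12 of 58 (20.7%). With GCGTGT, 6 of 18 had one and without it 9 of 60. With AGTGTA, 5 of 9 had one and without it 10 of 69, and the counts for AGTGTA, like those for GCGTGT, include the 4 genes from which these words were read.

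Other genes of the translation apparatus were counted in the same way. Of 6 ribosomal protein genes with other names, all had a pooled and none a reproducible summit, so the share of reproducible summits was 0 of 6. These were ubq-2 (60.1), rla-2 (52.2), rla-1 (51.4), rack-1 (51.0), ubl-1 (26.5) and rla-0 (25.1). The summits of ubq-2, rla-2 and rla-1 lay 145, 10 and 81 bp past the gene end. Of 8 elongation factor genes, 8 had a pooled and 2 a reproducible summit, iff-2 (105.8, rank 217, replicates 63.2 and 40.6) and eef-1G (72.9, rank 533). The eef-1G summit had none within 100 bp in the replicate 1 list, and one of 40.2 (rank 438) in replicate 2. Genes for proteins of the mitochondrial ribosome had a pooled summit in 43 of 70 (61.4%) and a reproducible one in 1, mrpl-23 (132.5, replicates 74.65 and 58.13). The mrpl-23 summit lay upstream beside non-coding RNA and snoRNA genes. Of 19 ribosome assembly genes 18 had a pooled and 1 a reproducible summit, nol-10 (72.0, rank 543). It ranked 253 in replicate 1 and 5585 in replicate 2. Median signal was 51.2, 49.5, 29.1 and 31.9 in these lists, beside 44.1 for the members.

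**Figure D5:**
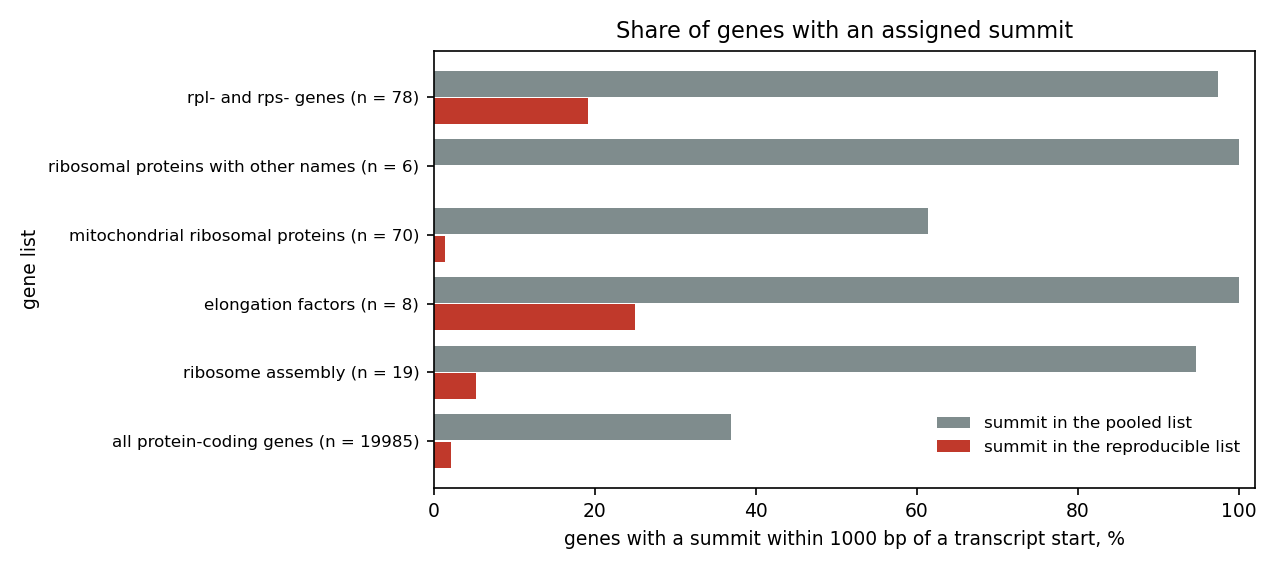
Share of genes in percent with a pooled (grey) or reproducible (red) summit within 1000 bp of a transcript start, for the rpl- and rps- genes, 4 other lists and all protein-coding genes. The rpl- and rps- genes reach 97.4% and 19.2%, the mitochondrial ribosomal protein genes 61.4% and 1.43%, and all protein-coding genes 36.9% and 2.07%.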

How the data were processed

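Regions recovered with an antibody against GFP were analysed in 2 biological replicates of 1 group. Per the labels, the deposited lists on ce11 give each region a signal value, a −log10 q-value and a summit offset, all from the authors' caller. The deposited −log10 q-value was not used to rank, and the deposited summit offset is another whole number of bp, counted from the region start. No source used here gives the aligner, the caller, the control, the threshold for reproducible regions or the scale of the authors' signal. Lists on another build were not analysed here. No test across groups was possible.

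Genes and transcript starts came from Ensembl release 115 and sequence from RefSeq's WBcel235. Summits were assigned within 1000 bp and matched between lists within 100 bp. Small RNA genes were sought within 300 bp, words within 50 bp of the summit, and promoters were the 500 bp before the outermost start. Assignment was tested on simulated summits. Wilson intervals are at 95%. Python 3.11.15, numpy 2.4.6, pandas 2.3.3, scipy 1.17.1 and matplotlib 3.10.9 were used.

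Members, lists and words were chosen with earlier results of these data known. Named genes were all with a reproducible summit, the next 5 by signal, those near small RNA genes and those with no summit. Lowest values, pairs with like names and other examples were named after their values were seen, as were the limit of 1000 bp on gene length and 3 of the words, as the text says.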

Additional observations from a re-analysis of the deposited data

How the results depend on the processing

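The main count was 15 members with a reproducible summit beside 2.07% of protein-coding genes. With a start within 500 bp it was 12 beside 1.32%, and within 250 bp it was 1 (rpl-12) beside 0.711%, since most upstream summits lay farther out. The pooled count then fell from 76 to 29. In the 310 highest regions of the reproducible list it was 8 beside 0.926%. When a summit served only the nearest start of any gene class it was 7 beside 0.751%, and only the nearest protein-coding start 10 beside 1.58%. With summits near small RNA genes left out, a choice made after seeing the data, it was 13 beside 1.08%. The single gene at 250 bp is 1.28% of members, near the background. In the other settings, those given next included, the members' share ran from 8.97% to 24.4%. Taking the highest 621 regions of a single replicate list gave 18 members beside 2.13% (replicate 1) and 19 beside 2.03% (replicate 2). Each of these sets held only 12 of the 15 main members, so the membership changed with the list. Summits within 50 bp in both replicate lists numbered 32 in place of 51. The outermost start alone, used because the annotation marks no canonical transcript (that planned choice was not run), gave 15 and 76. No paired analysis was possible because there is only 1 group. Read depth is unknown, no untagged control was analysed here, and the lists cannot tell which gene a shared region serves.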
